A study of Mus musculus with 2 samples.

Results

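Expression of 10 genes of erythropoietin receptor signalling was followed through erythroid differentiation in mouse fetal liver. The genes were the receptor *Epor*, its kinase *Jak2*, the transcription factors *Stat5a* and *Stat5b*, the feedback genes *Cish*, *Socs2* and *Socs3*, and the response genes *Pim1*, *Bcl2l1* and *Fam132b*. They were taken by symbol from the 27998 genes of the count table, and each symbol named 1 row. Levels were described across stages set by the surface antibodies against Ter119 and CD71. The cells came from the livers of 7 C57BL/6 embryos at e13.5, which were pooled before a single CITE-seq run, a method that reads the messenger RNA and barcoded antibodies of the same cells. No genotype or treatment was compared, so the stages were groups of cells of 1 cDNA library and had no replicates. All intervals below are 95% intervals that cover counting error only, and no p-value was computed.

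Erythropoietin keeps erythroid progenitors alive and dividing. Its receptor has no kinase of its own and signals through JAK2, which phosphorylates STAT5A and STAT5B, and these enter the nucleus and activate genes such as *Cish*, *Pim1* and *Bcl2l1*. Proteins of the CISH and SOCS family bind activated receptors or JAKs and dampen the signal.

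Surface Ter119, an erythroid antigen that appears as cells mature, and CD71, the transferrin receptor, were used to order the cells. Cells with few counts of 5 antibodies against other lineages were divided into S0-low (1510 cells), S0-medium (1054) and S1 (612), which had low Ter119 and rising CD71, then S2 (1297 cells with intermediate Ter119 and high CD71), S3 (838 with high Ter119 and high CD71) and S4/S5 (898 with high Ter119 and lower CD71). Per the methods of the study, Ter119-positive cells were depleted with magnets and then returned in equal number to the Ter119-negative cells. The cell numbers per stage therefore do not give the make-up of the liver. The stages stand in for the sorting gates of the study, whose positions were not given in the sources used here. Levels are given as the mean over cells of CPM, a gene's count of molecular identifiers (UMIs) per 1000000 UMIs of the cell, and lists of 6 values run in the order S0-low, S0-medium, S1, S2, S3 and S4/S5. The library counts the 3′ ends of transcripts, so a gene was compared between stages and not with another gene.

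Facts of the library that touch these levels are the following. The cDNA and antibody tables held the same 7863 cell barcodes, and 7244 cells passed the quality limits, with a median of 5707 UMIs per cell. The summed level of 12 erythroid marker genes, which include the globins, was 12351 CPM in S0-low and 630512 CPM in S4/S5, and globin genes made up 1.05%, 1.39%, 2.80%, 13.1%, 37.6% and 64.0% of the UMIs from S0-low to S4/S5. A gene whose share of the non-globin UMIs stayed the same would therefore have a lower CPM in the late stages. The median depth was 10151.5 UMIs in S1 and 3949 in S4/S5, so a gene with unchanged UMIs per cell would have a higher CPM in S4/S5. Ratios with globin left out of the denominator and as UMIs per cell are given beside many of the statements that they change. In S0-low, 443 cells (29.3%) belonged to clusters named by markers of other cell types, of which 328 were myeloid-like and 110 hepatocyte-like. In the other stages these cells made up at most 0.980%. The summed level of 9 hepatocyte markers was 6892 CPM in S0-low and 439.7 to 759 CPM in the other stages, and that of 9 myeloid markers was 742 CPM in S0-low and 71.4 to 198 CPM in the others.

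*Epor* (chr9:21958897-21963576 on GRCm38, the assembly also named mm10) encodes the receptor. Its level was 78.7, 141, 155, 153, 103 and 38.9 CPM over the 6 stages. The levels of S0-medium, S1 and S2 lay close together, and both ends of the series were lower. The level in S0-medium exceeded that in S0-low by a ratio of 1.80 (95% counting interval 1.64 to 1.97). From S0-medium to S1 the ratio was 1.10 (1.004 to 1.21), and between S1 and S2 it was 0.983 (0.897 to 1.08), an interval that holds 1. It was lower in S3 than in S2, with a ratio of 0.671 (0.598 to 0.751), and lower again in S4/S5, with a ratio to S3 of 0.379 (0.311 to 0.461). In order, the level was highest in S1, then S2, S0-medium, S3, S0-low and S4/S5, and S1 and S2 could not be told apart by their counts. The order changed with the setting. With globin left out it was S2, S3, S1, S0-medium, S4/S5 and S0-low (188, 169, 161, 144, 98.6 and 79.6 CPM). Without the non-erythroid clusters in S0-low, the ratio of S3 to S0-low was 0.935 (0.827 to 1.06), which holds 1.

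The S0-low level of *Epor* depended on which cells were in the gate. Without the 443 cells of non-erythroid clusters, the other 1067 S0-low cells had 109.7 CPM (102 to 118), and the ratio of S0-medium to S0-low was then 1.29. With other antibody scales or classes for the gates, that ratio was as high as 4.05. Myeloid-like cells had 7.20 CPM and hepatocyte-like cells 6.52 CPM, both far under any erythroid stage. The fall after S2 also depended on the denominator. With globin left out, *Epor* had 188 CPM in S2, 169 CPM in S3 and 98.6 CPM in S4/S5, ratios of 0.898 and 0.585, and as UMIs per cell the same ratios were 0.538 and 0.283. The direction after S2 was the same under all 3 denominators, while between S1 and S2 the ratio was above 1 with globin left out (1.16) and below 1 as UMIs per cell (0.695).

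*Jak2* (chr19:29251803-29313095) encodes the tyrosine kinase that the receptor holds at its cytoplasmic tail. Its level was 19.4, 24.4, 27.2, 17.9, 17.6 and 8.58 CPM, from 228, 239, 173, 157, 79 and 37 UMIs. In CPM it varied less than any other of the 10 genes, by 3.17 times between the highest and the lowest stage. The ratio was 1.26 (1.01 to 1.57) from S0-low to S0-medium, 1.11 (0.877 to 1.41) to S1, 0.660 (0.512 to 0.850) to S2, 0.979 (0.712 to 1.34) to S3 and 0.489 (0.310 to 0.756) to S4/S5. Only the steps from S0-low to S0-medium, S1 to S2 and S3 to S4/S5 had intervals without 1, and without the non-erythroid clusters that from S0-low to S0-medium was 1.10 (0.872 to 1.39), which holds 1. With globin left out, the level was 28.0 CPM in S1, 29.8 CPM in S3 and 21.9 CPM in S4/S5, so that the stages S0-low to S4/S5 spanned 19.6 to 29.8 CPM and the highest stage was S3. As UMIs per cell *Jak2* varied more than *Pim1*. Its ratio of S4/S5 to S1 was 0.146, and that of *Pim1* from S0-low to S3 was 3.55.

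*Stat5a* (chr11:100859351-100885169) and *Stat5b* (chr11:100780731-100859004) lie side by side on chromosome 11 and encode closely related transcription factors. The level of *Stat5a* was 36.1, 23.6, 13.47, 2.77, 3.70 and 3.78 CPM. That of *Stat5b* was 28.7, 21.0, 16.7, 7.99, 3.13 and 2.06 CPM. Both were highest in the least mature cells and lower in each later stage until S2. From S0-low to S0-medium the ratio was 0.655 (0.548 to 0.781) for *Stat5a* and 0.733 (0.601 to 0.894) for *Stat5b*, whereas as UMIs per cell it was 1.03 and 1.06, on the other side of 1. From S1 to S2 it was 0.205 (0.115 to 0.350) for *Stat5a*, which was under 0.5 with all 3 denominators. For *Stat5b* that ratio was 0.478 (0.346 to 0.661), and with globin left out it was 0.515. In the last stages the counts were low, with 23 and 16 UMIs of *Stat5a* and 20 and 12 of *Stat5b* in S3 and S4/S5, and the *Stat5a* levels of S2, S3 and S4/S5 did not differ beyond their intervals. With globin left out they were 3.30, 6.56 and 11.3 CPM, with a ratio of S4/S5 to S2 of 3.44 in place of 1.37. Hepatocyte-like cells had 6.29 CPM of *Stat5a* (3.45 to 13.7), and 6.35 CPM with globin left out. The CPM of S2, S3 and S4/S5 thus lay under the level of these cells, and the part of RNA from other cells in it was not tested.

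The balance between the 2 STAT5 genes was compared as the share of *Stat5a* among their summed UMIs, which needs no denominator. It was 56.2% in S0-low (exact interval 52.6 to 59.8%, 738 UMIs), 55.4% in S0-medium (51.1 to 59.7%), 47.1% in S1 (39.9 to 54.5%) and 21.0% in S2 (14.2 to 29.2%, 124 UMIs), then 53.5% in S3 (37.7 to 68.8%, 43 UMIs) and 57.1% in S4/S5 (37.2 to 75.5%, 28 UMIs). The S2 share lay below the intervals of all the other stages. In S2, S3 and S4/S5 the shares rest on *Stat5a* levels in CPM under that of hepatocyte-like cells. Near-identical genes can share reads, so the annotated transcripts (GENCODE M1) were compared by stretches of 50 bases. None of the stretches in the last 1000 bases was common to both genes, although 14.7% of those over all *Stat5a* transcripts were also in *Stat5b*.

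**Figure D1:**
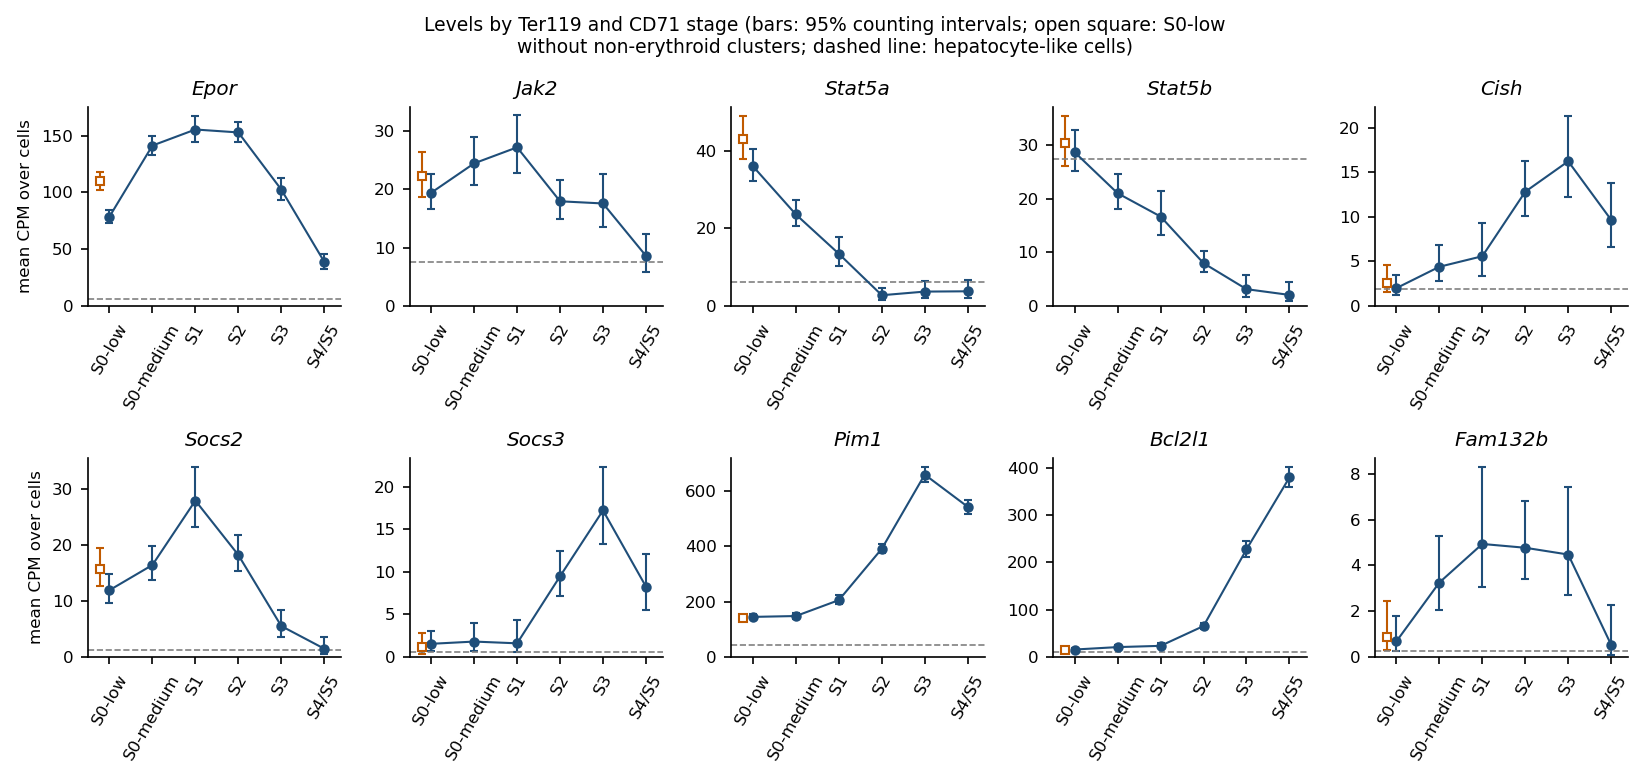
Mean CPM over cells (y axis, from 0) of each of the 10 genes in the 6 stages (x axis), with 95% counting intervals, the S0-low level without non-erythroid clusters as an open square and the level of hepatocyte-like cells as a dashed line. *Epor*, *Jak2* and *Socs2* are highest in S1, *Stat5a* and *Stat5b* in S0-low, *Cish*, *Socs3* and *Pim1* in S3, and *Bcl2l1* in S4/S5.

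The 3 feedback genes did not follow a common course. *Cish* (chr9:107296659-107302784), which encodes the SH2 protein first named for its induction by cytokines, had a level of 2.0, 4.40, 5.58, 12.8, 16.2 and 9.66 CPM, from 23, 36, 29, 96, 66 and 35 UMIs. Its level in S0-medium exceeded that in S0-low (2.20 (1.14 to 4.29)), and that in S2 exceeded that in S1 (2.30 (1.38 to 4.005)). The step from S0-low rested on few UMIs, and without the non-erythroid clusters the S0-low level was 2.61 CPM and the ratio was 1.69 (0.862 to 3.37), which holds 1. With gates set on log10 antibody counts it was 0.808, on the other side of 1. S2 and S3 did not differ beyond the counts (ratio 1.27 (0.881 to 1.81)). In S4/S5 the ratio to S3 was 0.595 (0.375 to 0.930), and 0.854 with globin left out.

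*Socs3* (chr11:117966079-117970336) encodes a suppressor that inhibits JAKs at several cytokine receptors. Its level was 1.54, 1.81, 1.60, 9.49, 17.2 and 8.27 CPM, from 14, 9, 7, 66, 72 and 31 UMIs. The 3 stages with low Ter119 had between 7 and 14 UMIs each and did not differ, and the level in S2 was higher than in S1 by a ratio of 5.92 (2.52 to 17.3). The ratio of S3 to S2 was 1.82 (1.25 to 2.64), and that of S4/S5 to S3 was 0.480 (0.299 to 0.754). Both *Socs3* and *Cish* were thus highest in S3. The S4/S5 level of *Socs3* exceeded that of S1 by a ratio of 5.16 (2.08 to 15.6). For *Cish* that ratio was 1.73 (0.959 to 3.21), an interval that holds 1, and as UMIs per cell it was 0.823.

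*Socs2* (chr10:95383903-95417321), best known as the brake on growth hormone signalling, had another course. Its level was 11.9, 16.4, 27.9, 18.2, 5.50 and 1.47 CPM. It was higher in S1 than in S0-medium by a ratio of 1.70 (1.32 to 2.19), lower in S2 than in S1 (0.652 (0.508 to 0.838)) and lower in S3 than in S2 (0.303 (0.193 to 0.460)), with 35 UMIs in S3 and 9 in S4/S5. From S2 to S3 the ratio was 0.395 with globin left out and 0.315 as UMIs per cell. The step from S1 to S2 depended on the gates, and its ratio was 1.15 with gates on log10 antibody counts and 1.02 with antibodies centred within each cell.

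Promoter sequence is shown for the members in which a motif of the pathway was found, so that the letters can be set beside the levels above. RefSeq windows (GRCm38.p6) from 250 bases before to 50 bases after the transcription start were on hand for the members other than *Socs2*, in 14 windows. The inverted repeat TTCNNNGAA, the form bound by STAT5, was searched on both strands, where it reads the same, and so was AGATAA, a form bound by the erythroid factor GATA1. The 2 motifs overlapped in none of the member windows. TTCNNNGAA was in 8.3% of all 32851 windows and in 2 of the 14, those of *Cish* and *Socs3*. In *Cish* the first match began at the first transcribed base and the next began 11 bases downstream, and in *Socs3* the match began 154 bases upstream of the start used for its window, which lies inside the span of the gene given above. AGATAA was in 11.2% of all windows and in 2 of the 14, with a match that began 54 bases upstream of the *Epor* start on the opposite strand and 41 bases upstream of 1 of the 3 *Bcl2l1* starts on the same strand. Stretches of 90 bases are printed in the direction of transcription, with the matches in capitals; that of *Cish* ends 30 bases into the transcript, and the others lie upstream of the start of their own window.
*Cish*, chr9:107296599-107296688, plus strand: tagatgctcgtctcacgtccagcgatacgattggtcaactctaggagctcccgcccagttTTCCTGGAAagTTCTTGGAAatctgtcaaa
*Socs3*, chr11:117969467-117969556, minus strand: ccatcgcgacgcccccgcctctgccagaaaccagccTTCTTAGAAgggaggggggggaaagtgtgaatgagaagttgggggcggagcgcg
*Epor*, chr9:21963577-21963666, minus strand: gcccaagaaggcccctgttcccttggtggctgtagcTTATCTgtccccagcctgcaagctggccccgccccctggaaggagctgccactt
*Bcl2l1*, chr2:152828490-152828579, minus strand: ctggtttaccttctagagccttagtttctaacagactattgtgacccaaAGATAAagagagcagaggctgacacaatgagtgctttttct
A match of letters does not show that a factor was bound, and binding was not measured in these libraries.

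*Pim1* and *Bcl2l1* were the members with the largest counts in the late stages. *Pim1* (chr17:29490785-29496111) encodes a serine/threonine kinase that supports survival and growth. Its level was 145, 148, 205, 391, 659 and 543 CPM, from 891 UMIs in S1 to 2737 in S2. S0-low and S0-medium did not differ (ratio 1.02 (0.929 to 1.12)), and each of the next 3 stages was higher than the one before, with ratios of 1.39 (1.25 to 1.54), 1.90 (1.74 to 2.08) and 1.69 (1.59 to 1.79). In S4/S5 the ratio to S3 was 0.823 (0.773 to 0.877), which became 1.10 with globin left out and 0.676 as UMIs per cell, so the direction of this last step depended on the denominator.

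*Bcl2l1* (chr2:152758732-152833803) encodes BCL-XL, the protein of the BCL2 family that protects late erythroblasts from apoptosis. Its level was 15.7, 20.8, 23.4, 65.3, 227 and 379 CPM. In CPM that was the widest range of the 10 genes, with the highest stage 24.2 times the lowest. The 3 stages with low Ter119 lay within 15.7 to 23.4 CPM. The ratio of S0-medium to S0-low was 1.33 (1.02 to 1.73), and it was 0.567 to 0.832 under the 3 alternatives that set the gates on another antibody scale or by another classifier. The ratio was then 2.79 (2.16 to 3.64) from S1 to S2, 3.48 (3.06 to 3.97) from S2 to S3 and 1.67 (1.52 to 1.83) from S3 to S4/S5. With gates on log10 antibody counts the ratio from S1 to S2 was 1.06. With the stages as defined above, all 3 ratios were above 1 with globin left out (3.79, 4.68 and 2.24) and as UMIs per cell (1.81, 3.22 and 1.476). Of the 6 members tested in the last step it was the only one above 1 with every denominator, and it went from 0.107 UMIs per cell in S0-low to 1.49 in S4/S5.

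*Fam132b* (chr1:91366305-91374217), also named *Erfe*, encodes erythroferrone, the hormone by which erythroblasts lower hepcidin in the liver. It had 156 UMIs in all kept cells. Its level was 0.679, 3.25, 4.94, 4.77, 4.47 and 0.528 CPM, from 9, 33, 29, 48, 22 and 3 UMIs. S0-medium, S1, S2 and S3 did not differ beyond their intervals, and S4/S5 was lower than S3 by a ratio of 0.118 (0.0214 to 0.409). The S0-medium level exceeded that of S0-low by a ratio of 4.78 (1.97 to 13.4). A UMI was found in 0 of the 96 megakaryocyte-like cells, with an exact upper bound of 3.77%.

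To see how these steps compare with the rest of the genome, the ratio between neighbouring stages was taken for every gene with at least 50 UMIs over both stages, and genes past a 2-fold difference were counted. From S0-low to S0-medium, 1 of the 8 members tested (*Cish*) was at least 2-fold higher and 0 were lower, against 1.84% and 14.3% of 9824 genes. From S0-medium to S1, 0 of 9 members passed in either direction, against 0.451% and 2.49% of 8649 genes. From S1 to S2, 3 of 10 were higher (*Cish*, *Socs3* and *Bcl2l1*) and 2 lower (*Stat5a* and *Stat5b*), against 2.1% and 14.8% of 8210 genes. From S2 to S3, 1 of 9 was higher (*Bcl2l1*) and 2 lower (*Stat5b* and *Socs2*), against 1.55% and 31.7% of 7596 genes. From S3 to S4/S5, 0 of 6 were higher and 3 lower (*Epor*, *Jak2* and *Socs3*), against 0.27% and 42.6% of 5553 genes. The members not tested lacked UMIs, namely *Socs3* and *Fam132b* in the first step, *Socs3* in the second, *Stat5a* in the fourth, and *Stat5a*, *Stat5b*, *Socs2* and *Fam132b* in the last. In the step from S1 to S2, the 2 of 10 members that were lower lay near the 14.8% of all genes. The 3 of 10 that were higher stood beside 2.1% of all genes. The last step had 3 of 6 members past 2-fold, all lower, near the 42.6% of all genes that were lower in it.

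The median gene also moved, and the members are read against it. The median log2 ratio of all genes tested was -0.08, -0.12, -0.45, -0.77 and -0.91 in the 5 steps, and -0.07, -0.10, -0.24, -0.28 and -0.18 with globin left out, and 0.38, -0.13, -0.86, -1.08 and -1.31 as UMIs per cell. The median over the members tested was 0.37, 0.17, -0.04, -0.03 and -0.89 in CPM. In the plot of step ratios *Epor* stays above the all-gene median up to S3 and falls below it in the last step with each denominator.

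**Figure D2:**
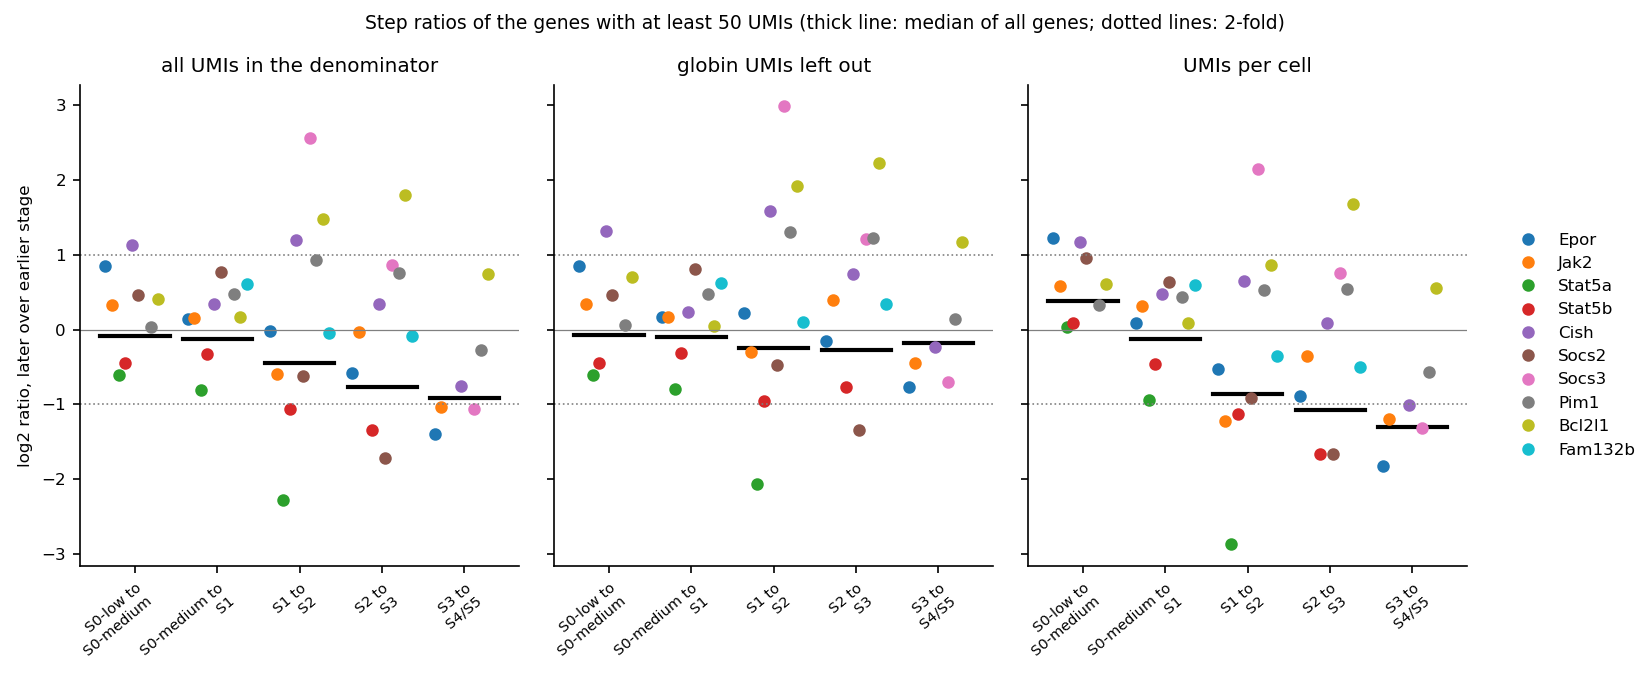
Log2 ratio of the later over the earlier stage (y axis) for each step (x axis) and each member with at least 50 UMIs (coloured points), in CPM, with globin UMIs left out of the denominator, and as UMIs per cell. The thick line is the median of all genes tested (-0.45 in CPM from S1 to S2), and *Bcl2l1* lies above it in every step under each denominator.

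Shares of cells with a UMI were compared after each cell had been thinned at random to 2000 UMIs, which removes differences in total depth. Globin UMIs were kept, and they made up 1.05% of the UMIs in S0-low and 64.0% in S4/S5. The number of non-globin UMIs per thinned cell was therefore still lower in the late stages, and its part in the shares was not tested. *Epor* was found in 13.3%, 24.2%, 28.1%, 26.8%, 18.7% and 6.35% of the cells. In hepatocyte-like cells, which should lack it, the share was 1.06% (0.129 to 3.79%), at a median of 13055 UMIs per cell before thinning against 3949 to 10282 in the stages. The share of every stage lay above the interval of the hepatocyte-like cells. Unthinned, the shares were 35.8%, 67.4%, 70.6%, 57.2%, 37.2% and 14.4%, and 8.51% in hepatocyte-like cells. *Pim1* was found in 23.2%, 23.0%, 29.6%, 46.0%, 63.0% and 49.2% of the cells, and in 8.51% of hepatocyte-like cells (4.94 to 13.45%).

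*Bcl2l1* was found in 3.11%, 3.32%, 4.90%, 10.8%, 30.7% and 47.7% of the cells, and in 2.66% of hepatocyte-like cells (0.869 to 6.10%). Its shares in S0-low, S0-medium and S1 could not be told from the hepatocyte-like share by their intervals, and those of S2, S3 and S4/S5 lay above it. As the mean CPM over cells, the level of these 3 stages was above the 9.91 CPM of hepatocyte-like cells, with ratios of 1.58 (1.02 to 2.53), 2.098 (1.35 to 3.37) and 2.36 (1.49 to 3.88), while as UMIs per cell the ratios were 0.742, 1.14 and 1.21. Both the share of cells and the number of UMIs in a positive cell were larger in the late stages, with 1.10 UMIs per positive cell in S0-low and 2.15 in S4/S5 before thinning. *Cish*, *Socs3* and *Fam132b* were found in at most 2.98%, 3.22% and 1.47% of the thinned cells of any stage, and only the *Socs3* and *Cish* shares of S3 exceeded the upper bound in hepatocyte-like cells, which was 2.93% for both, and their own intervals reached below it. For these genes single cells could not be called at this depth, and the levels above rest on sums over cells. *Stat5b* was found in 4.26% of hepatocyte-like cells (1.85 to 8.21%), with a level of 27.4 CPM that equalled that of S0-low within the intervals, so that these cells are no measure of background for it.

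**Figure D3:**
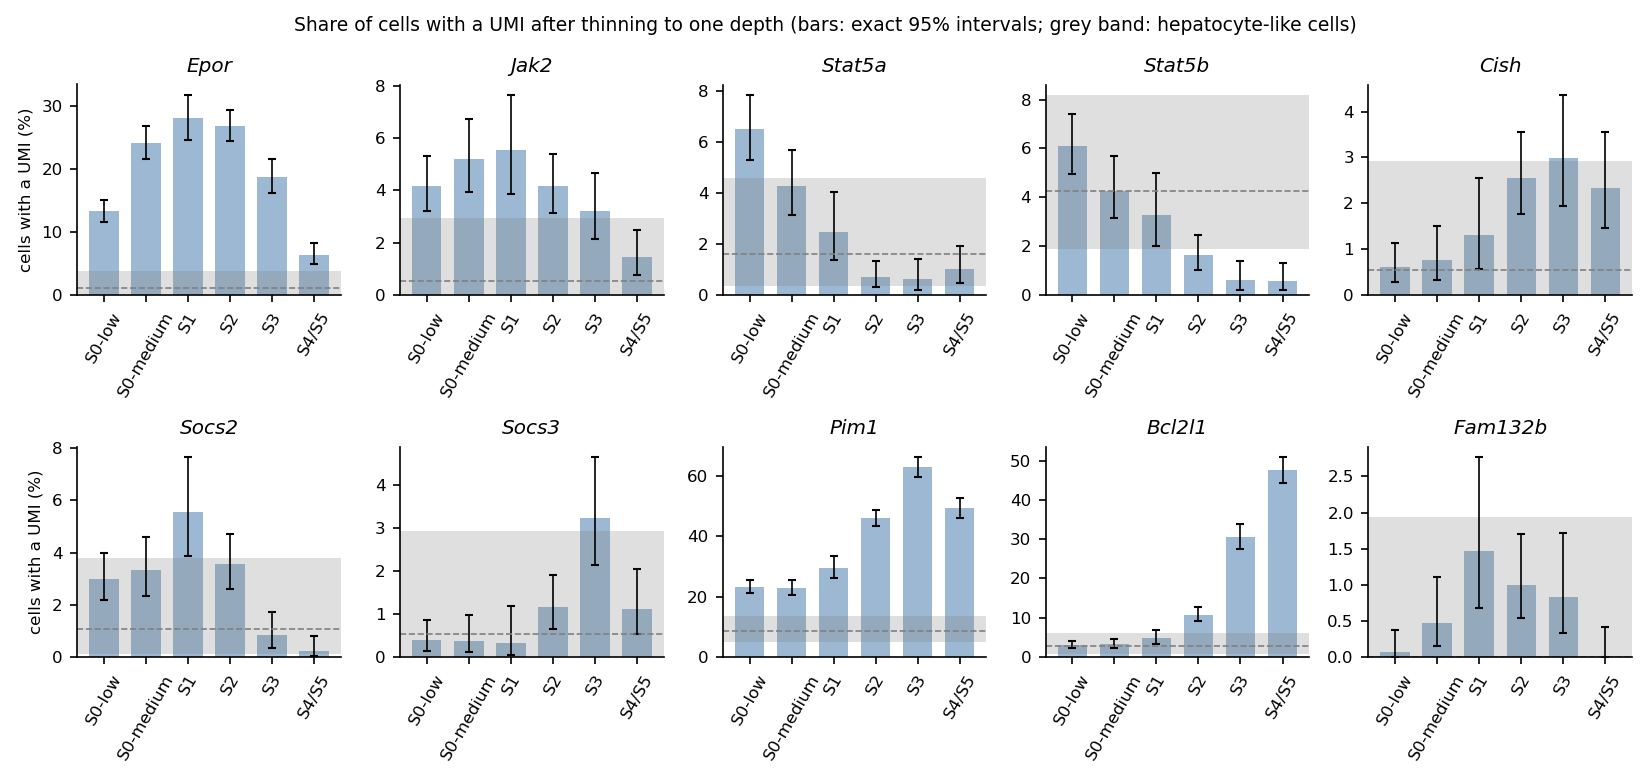
Percentage of cells with at least 1 UMI (y axis, from 0) of each gene in the 6 stages (x axis) after thinning to 2000 UMIs per cell, with exact 95% intervals as error bars and the hepatocyte-like share and interval as dashed line and grey band. *Pim1* reaches 63.0% in S3 and *Bcl2l1* 47.7% in S4/S5, whereas *Cish*, *Socs3* and *Fam132b* stay at or near the band.

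The levels were also followed at a finer grain, in 16 groups of cells without the non-erythroid clusters. Groups 1 to 10 were 10 equal parts of the low Ter119 cells by rising CD71, groups 11 to 13 divided S2 by rising Ter119, and groups 14 to 16 divided the high Ter119 cells by falling CD71. *Epor* was 59.0 CPM (47.1 to 74.1) in group 1, 105 in group 2, 129 in group 3 and 143 in group 4, and then stayed within 137 to 165 CPM up to group 13. The main difference in *Epor* among low Ter119 cells was thus at the lowest CD71, where the median antibody count went from 27 in group 1 to 203 in group 4. Only named clusters had been left out. Unnamed clusters led by *Gata2* and *Cpa3* (370 cells), stromal genes (63 cells) and *Ngp* and *Camp* (41 cells) were not, and their part in group 1 was not tested. It was 110.1 CPM in group 14, 69.3 in group 15 and 30.1 in group 16.

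*Stat5a* was 65.2 CPM in group 1, 40.8 in group 2, 27.4 in group 5, 9.75 in group 10 and 2.88 in group 11. In CPM it was therefore already lower while *Epor* became higher, within cells that all had low Ter119. This depended on the denominator. *Stat5a* had 108, 89, 80, 85, 76 and 107 UMIs in groups 1 to 6 of 272 cells each, and 33 in group 10. The median depth was 5284 UMIs in group 1 and 11100 in group 6. *Socs2* lay within 13.4 to 17.4 CPM in groups 1 to 6 and was 27.8 and 28.7 CPM in groups 9 and 10, then 24.5 in group 11 and 15.3 in group 12. *Bcl2l1* was 21.7 CPM in group 10 and 26.8 in group 11, then 59.7 in group 12, 110.0 in group 13, 188 in group 14, 362 in group 15 and 369.5 in group 16. Most of the difference between S1 and S2 in *Bcl2l1* thus lay within S2, between the cells with least and most Ter119. *Pim1* was 204 CPM in group 10 and 285, 381 and 506 CPM within S2, reached 705 CPM in group 15 and was 469 CPM in group 16. *Cish* was 8.04, 11.6 and 18.9 CPM and *Socs3* 5.65, 7.16 and 15.8 CPM in the same 3 groups of S2 cells. All 4 of these genes had their highest S2 level in the cells with most Ter119, while *Stat5b* was 10.6, 6.91 and 6.42 CPM and *Epor* 158, 153 and 148 CPM. The direction for *Epor* depended on the denominator. With globin left out it was 175, 185 and 205 CPM, also highest in the cells with most Ter119. Its UMIs were 589, 486 and 405 in these groups of 431 cells each. With globin left out *Stat5b* was 11.3, 7.52 and 7.61 CPM.

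**Figure D4:**
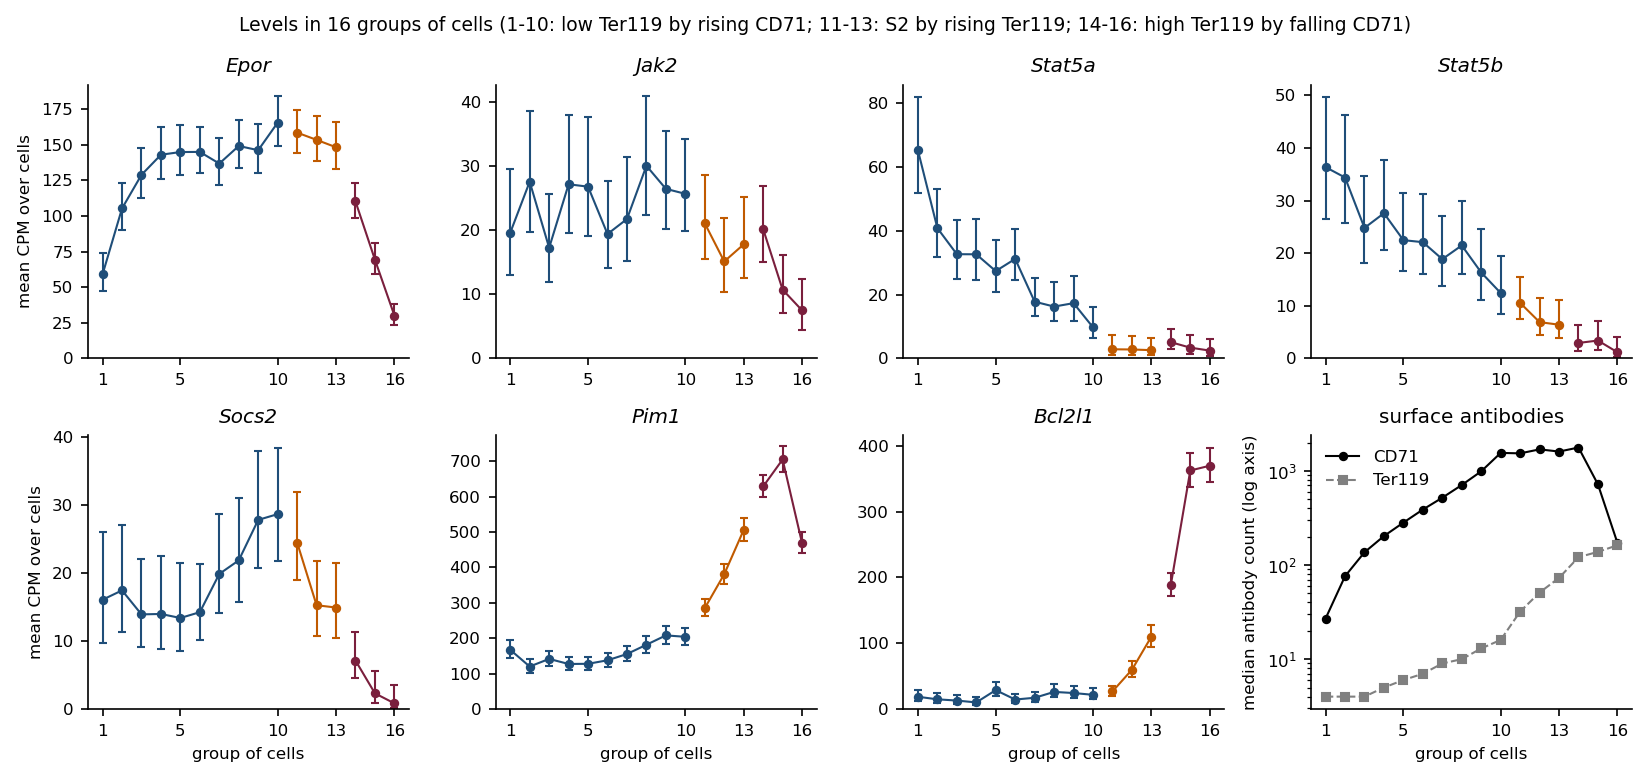
Mean CPM over cells (y axis, from 0, with 95% counting intervals) of 7 members in 16 groups of cells (x axis), where groups 1 to 10 have low Ter119 and rising CD71, 11 to 13 are S2 cells by rising Ter119 and 14 to 16 have high Ter119 and falling CD71; the last panel gives the median antibody counts on a log axis. *Epor* is 59.0 CPM in group 1 and 165 in group 10, and *Bcl2l1* goes from 26.8 CPM in group 11 to 369.5 in group 16.

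Over the 16 groups, the members with at least 500 UMIs were correlated on log2(mean CPM + 10), as a description of points that share 1 library and differ in depth. Pearson's r was 0.933 between *Stat5a* and *Stat5b* and 0.919 between *Pim1* and *Bcl2l1*. It was -0.931 between *Stat5b* and *Pim1* and -0.895 between *Stat5b* and *Bcl2l1*. *Epor* had r of 0.703 with *Jak2*, 0.761 with *Socs2*, 0.0475 with *Stat5a* and -0.596 with *Bcl2l1*. The genes most like each member among 5990 candidates were then read off. For *Epor* they included *E2f4* (r = 0.984), a transcription factor of the cell cycle, *Pabpc4* (0.981), a poly(A)-binding protein, *Bola3* (0.981) and *Gm10110* (0.978), of which *Bola3* had r of 0.381 with globin left out of the denominator. For *Stat5a* they were *Cdk6*, *Tagln2* and *Spint2* (r = 0.985, 0.984 and 0.984), and for *Stat5b* they included *Vamp5* and *Sec61a1* (0.992 and 0.991), the latter with r of 0.429 with globin left out. For *Jak2* the values were lower, with *Dcaf11*, *Papd4* and *Whsc1l1* at 0.913, 0.906 and 0.8996, and at 0.587, 0.488 and 0.346 with globin left out. For *Socs2* they were *Rad54l*, *Dscc1* and *Klf13* (0.962, 0.960 and 0.955). *Pim1* was most like *Malat1*, a nuclear noncoding RNA, *Ptp4a3*, a phosphatase, and *1810058I24Rik* (0.992, 0.990 and 0.984). *Bcl2l1* was most like *Tcp11l2*, *Slfn14* and *Map1lc3b* (0.996, 0.989 and 0.988), the last of which encodes a protein of autophagosomes. These rankings rest on Pearson's r. By Spearman's rank correlation *E2f4*, *Bola3*, *Gm10110*, *Cdk6*, *Tagln2*, *Spint2*, *Dscc1*, *Klf13* and *Slfn14* were no longer among the leading genes of their member. The other genes named here were.

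S0-low was split further by the antibody against cKit, the stem cell factor receptor of early progenitors, into 668 cells with high and 399 with low counts after the non-erythroid clusters had been left out. *Pim1* was lower in the cKit-high cells, at 116 against 179 CPM, a ratio of 0.647 (0.555 to 0.755). *Bcl2l1* was lower as well, at 10.9 against 20.2 CPM (0.538 (0.337 to 0.868)). *Stat5a* was higher, at 48.5 against 34.2 CPM (1.42 (1.05 to 1.94)). The intervals of the ratios of *Epor* (0.858 (0.734 to 1.01)), *Jak2* (1.41 (0.959 to 2.13)), *Stat5b* (1.03 (0.743 to 1.44)) and *Socs2* (0.840 (0.538 to 1.34)) held 1. Cells with high cKit were also deeper, with a median of 9006 UMIs against 4417. As UMIs per cell, *Pim1* and *Bcl2l1* were not lower in them. *Pim1* had 586 UMIs in the 668 cKit-high cells and 321 in the 399 cKit-low cells, and *Bcl2l1* had 66 and 36.

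Detection of pairs of members in the same cell was compared within stages, at 2000 UMIs per cell. A stage is a range of maturity and its cells are not replicates, so these shares describe the cells of this library, and the part of maturity in them was not tested. In S2, a UMI of *Bcl2l1* was found in 15.6% (12.8 to 18.8%) of the 596 cells with a UMI of *Pim1* and in 6.70% (4.97 to 8.82%) of the 701 without, and these intervals did not overlap. In S3 it was found in 31.1% (27.1 to 35.2%) of the 528 cells with a UMI of *Pim1* and in 30% (25.0 to 35.4%) of the 310 without, shares that lay close together. In S4/S5 it was found in 56.3% (51.6 to 61.0%) of the 442 cells with a UMI of *Pim1* and in 39.3% (34.7 to 43.9%) of the 456 without, again without overlap. Beside *Epor*, *Bcl2l1* was found in S3 in 18.5% (12.7 to 25.4%) of the 157 cells with a UMI of *Epor* and in 33.5% (29.9 to 37.2%) of the 681 without. In the other 5 stages the intervals with and without *Epor* overlapped, with 4.48% and 2.90% in S0-low, 1.57% and 3.88% in S0-medium, 1.74% and 6.14% in S1, 9.20% and 11.4% in S2 and 38.6% and 48.3% in S4/S5. *Pim1* with and without *Epor* had overlapping intervals in every stage, with 29.7% and 29.5% in S1, 47.7% and 45.3% in S2, 55.4% and 64.8% in S3 and 64.9% and 48.2% in S4/S5.

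Among the other cell types, named only from their markers, megakaryocyte-like cells (96) carried several members. They had 58.5 CPM of *Epor* (41.1 to 84.7), 73.4 CPM of *Jak2* (51.8 to 104) and 128 CPM of *Bcl2l1* (98.4 to 166). The *Jak2* level was above that of all 6 erythroid stages. These levels depended on the clustering. At Leiden resolutions of 0.4 and 1.2 the megakaryocyte-like class had 350 and 309 cells, with 34.8 and 34.1 CPM of *Jak2*, 50.8 and 55.7 CPM of *Bcl2l1* and 64.5 and 40.6 CPM of *Epor*. Macrophage-like cells (80) had 33.2 CPM of *Socs2* (17.0 to 62.0) and 16.5 CPM of *Epor* (7.80 to 37.5). Myeloid-like cells (657) had 179 CPM of *Pim1* and 21.6 CPM of *Stat5a*, levels inside the range of the erythroid stages.

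The remaining genes of the pathway were counted in lists of 72 genes, all present in the table. Of 26 receptor-proximal signalling genes, 1 was at least 2-fold higher and 5 lower of 25 tested from S0-low to S0-medium, against 1.84% and 14.3% of all genes, with a median log2 ratio of -0.31 against -0.08 for all genes. In the next 4 steps 0 were higher, against 0.451%, 2.1%, 1.55% and 0.27% of all genes. In the same steps 0 of 23, 5 of 21, 5 of 20 and 7 of 15 were lower, against 2.49%, 14.8%, 31.7% and 42.6% of all genes. The medians of -0.29, -0.58, -0.63 and -0.95 stood beside -0.12, -0.45, -0.77 and -0.91 for all genes. *Gab1*, an adaptor that links the receptor to PI3-kinase, was the gene that was higher, with 11.1 CPM in S0-low against 26.2 in S0-medium (ratio 2.37, 1.81 to 3.13). The lower genes with the smallest ratios in that step were *Vav1*, a guanine nucleotide exchange factor, with 16.4 CPM in S0-low against 2.74 in S0-medium (ratio 0.167, 0.105 to 0.254), *Pik3cd*, a catalytic subunit of PI3-kinase, with 12.4 CPM in S0-low against 3.01 in S0-medium (ratio 0.242, 0.153 to 0.371), and *Ptpn6*, the phosphatase SHP-1 that ends JAK2 signalling, with 41.1 CPM in S0-low against 12.1 in S0-medium (ratio 0.294, 0.237 to 0.363). Myeloid cells also express all 3, and without the non-erythroid clusters the ratios were 0.216, 0.298 and 0.476.

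The list of other genes known to respond to STAT5 or erythropoietin held 22. In the 5 steps 1 of 15, 0 of 13, 1 of 13, 0 of 13 and 1 of 8 tested were higher. The shares of all genes were 1.84%, 0.451%, 2.1%, 1.55% and 0.27%. Lower were 4 of 15, 0 of 13, 5 of 13, 5 of 13 and 2 of 8, against 14.3%, 2.49%, 14.8%, 31.7% and 42.6% of all genes. The medians were -0.44, -0.42, -0.98, -0.84 and -0.53, against -0.08, -0.12, -0.45, -0.77 and -0.91 for all genes. *Ptp4a3* was higher in S2 than in S1, with 144 CPM in S1 against 325 in S2 (ratio 2.25, 2.04 to 2.48). *Pdcd4*, an inhibitor of translation, was lower in each stage up to S3, from 98.4 CPM in S0-low to 4.96 in S3. It was higher only in the last step, with 10.6 CPM in S4/S5 (ratio 2.13, 1.17 to 4.03), from 26 and 44 UMIs. That ratio was 1.58 as UMIs per cell and 1.91 without the non-erythroid clusters. *Ccnd3*, which encodes cyclin D3, was lower in the last step, with 482 CPM in S3 against 112 in S4/S5 (ratio 0.232, 0.207 to 0.258). *Trib3*, a pseudokinase, was higher in the first step, with 1.65 CPM in S0-low against 5.69 in S0-medium (ratio 3.46, 1.68 to 7.47). It was lower later, with 4.15 CPM in S2 against 1.08 in S3 (ratio 0.260, 0.0862 to 0.635). With globin left out the ratios were 3.56 and 0.529, so that the later one was not past 2-fold. *Dusp6*, a phosphatase of ERK, was lower, with 6.53 CPM in S0-low against 0.106 in S0-medium (ratio 0.0162, 0.000403 to 0.0946). S0-low held 68 UMIs and S0-medium 1 UMI. Without the non-erythroid clusters the ratio was 0, as S0-medium then held no UMI while S0-low still did. Hepatocyte-like cells, some of which were in S0-low, had 32.8 CPM, and the size of their part in the S0-low level was not tested.

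Of the 8 other JAKs and STATs, 0 were higher in any step, against 0.27% to 2.1% of all genes. In the 5 steps 1 of 7, 0 of 5, 1 of 4, 1 of 4 and 0 of 2 tested were lower. The shares of all genes that were lower were 14.3%, 2.49%, 14.8%, 31.7% and 42.6%. The lower genes included *Jak3*, with 4.06 CPM in S0-low against 0.827 in S0-medium (ratio 0.203, 0.0856 to 0.436). They also included *Stat6*, with 9.71 CPM in S1 against 4.82 in S2 (ratio 0.496, 0.322 to 0.765). With globin left out the ratios were 0.205 and 0.540, so that *Stat6* was not past 2-fold. Without the non-erythroid clusters the ratio of *Jak3* was 0.328. It rested on 50 UMIs over both stages, the fewest that were tested. Of the 4 other SOCS genes, 0 were higher in any step, against 0.27% to 2.1% of all genes. *Socs6* had 11.4 CPM in S2 against 4.76 in S3 (ratio 0.419, 0.248 to 0.678). *Socs7* had 6.06 CPM in S2 against 1.63 in S3 (ratio 0.269, 0.106 to 0.591). *Socs4* had 26.5 CPM in S3 against 7.20 in S4/S5 (ratio 0.272, 0.168 to 0.425). With globin left out these ratios were 0.673, 0.380 and 0.413, so that *Socs6* was not past 2-fold. Of the SOCS genes tested, 0 of 3, 1 of 3, 1 of 3, 2 of 3 and 1 of 1 were lower in the 5 steps, beside the same shares of all genes. The median log2 ratio of the SOCS list ran from -0.09 to -1.88 over the 5 steps and that of the JAK and STAT list from -0.00106 to -0.68. That of all genes ran from -0.08 to -0.91. Of 11 other cytokine receptors that use JAK2 or STAT5, 7 of 8 tested were lower from S0-low to S0-medium, against 14.3% of all genes. Their median log2 ratio was -3.38, against -0.08 for all genes. They included *Csf3r*, the receptor of granulocyte colony-stimulating factor, with 6.72 CPM in S0-low against 0.302 in S0-medium (ratio 0.0450, 0.00520 to 0.173), and *Csf2rb*, the common beta subunit, with 11.5 CPM in S0-low against 0.525 in S0-medium (ratio 0.0457, 0.00981 to 0.135), where S0-medium held 2 and 4 UMIs. *Epor* was higher in the same step. The count of 7 of 8 and the median were taken with the non-erythroid clusters in S0-low. Without these clusters the ratios of *Csf3r* and *Csf2rb* were 0.215 and 0.073, and the part of the myeloid-like cells in them was not tested beyond this. *Ghr*, also among the 7, had 4.00 CPM in S0-low and 51.7 CPM in hepatocyte-like cells, whose part in its ratio was not tested. *Kit*, the stem cell factor receptor, had levels of 62.2, 28.2, 7.996 and 2.82 CPM in the first 4 stages. The ligand gene *Epo* was listed at 0 UMIs in all 6 stages and in the hepatocyte-like cells.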

How the data were processed

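A single CITE-seq run was analysed, with 1 cDNA and 1 antibody library. Per the methods, cDNA reads were mapped to mm10 by Cell Ranger v2.1.1, and the authors deposited raw UMI counts per gene and cell. Antibody reads were assigned by CITE-seq-Count and deposited as raw counts, of which 1.05% matched no antibody. Whether antibody molecules were collapsed is not given in the sources used here.

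The study's limits on cells were applied (300 to 5000 genes, up to 9% mitochondrial UMIs), and 128 doublets by the Scrublet method were left out. Antibodies were scaled by a centred log ratio over cells. A limit on 5 summed lineage antibodies (median plus 2 scaled median absolute deviations) left 6424 cells, of which 215 fell in no stage. Ter119 was split into 3 k-means classes, and CD71 into 3 in low and 2 in high Ter119 cells. Leiden clusters (resolution 0.8) were named where at least 3 markers were among the top 10 genes.

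Intervals used the effective counts of the weighted sums, or Clopper-Pearson for shares. On data simulated for S1 to S2 over 14119 genes, the direction was right for 100 of 100 genes changed 2-fold and 100 of 100 changed 4-fold, and 92 and 94 true ratios lay within their intervals.

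The 10 genes, lists and rules were chosen with earlier results of these data known. Genes named beside them were up to 3 with the largest and 3 with the smallest ratio past 2-fold in each list, and the 5 most like *Epor* and 3 most like each other member with 500 UMIs; *Kit* was added after its values were seen. A few genes that these rules name are not reported here. Alternatives changed the antibody scale, classes, filters, denominators and depth. Positions and promoters came from RefSeq (GRCm38.p6, the assembly of mm10). Python 3.11.15, scanpy 1.11.5, scikit-learn 1.9.0 and scipy 1.17.1 were used.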

Additional observations from a re-analysis of the deposited data

How the results depend on the processing

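The counts of members past 2-fold were recomputed under 17 alternatives, and 42 ratios of members between neighbouring stages under 14 of them. Of 588 recomputed ratios, 505 stayed within the counting interval and 35 lay on the other side of 1, 25 of them for steps whose own interval held 1. The remaining 10 changed direction. With the gates set on log10 antibody counts, the ratio from S0-low to S0-medium was 0.808 for *Cish* and 0.567 for *Bcl2l1*, and that of *Socs2* from S1 to S2 was 1.15. With antibodies centred within each cell, the ratio from S0-low to S0-medium was 1.03 for *Stat5b* and 0.633 for *Bcl2l1*, and that of *Socs2* from S1 to S2 was 1.02. With Gaussian mixture classes, the ratio of *Bcl2l1* from S0-low to S0-medium was 0.832. With globin left out, that of *Pim1* from S3 to S4/S5 was 1.10, and as UMIs per cell *Stat5a* had 1.03 and *Stat5b* 1.06 from S0-low to S0-medium. Of 170 recomputed counts, 130 stayed within 1.5 times. The others were as follows, and the cause was not tested unless the setting itself removes cells, UMIs or genes. With log10 antibody counts, 1 member was higher from S0-medium to S1, 1 higher and 1 lower from S1 to S2, and 4 higher from S2 to S3. With antibodies centred within each cell, 1 was higher from S0-medium to S1, 1 lower from S1 to S2 and 2 higher from S2 to S3. With Gaussian mixture classes, 2 were higher from S2 to S3. Without quality limits, 1 was lower from S1 to S2. Without the non-erythroid clusters, 0 were higher from S0-low to S0-medium. With pooled CPM, 0 were higher from S0-low to S0-medium, 1 lower from S1 to S2, 2 higher from S2 to S3 and 1 lower from S3 to S4/S5. With globin left out of the denominator, 1 was lower from S1 to S2, 3 higher and 1 lower from S2 to S3, and 1 higher and 0 lower from S3 to S4/S5. As UMIs per cell, 2 were higher from S0-low to S0-medium and 1 higher from S1 to S2. With cells thinned to 2000 UMIs, 0 were higher from S0-low to S0-medium, 1 higher and 0 lower from S1 to S2, 1 lower from S2 to S3 and 1 lower from S3 to S4/S5. Without the filter on low values, 2 were higher from S0-low to S0-medium and 5 lower from S3 to S4/S5. With a filter of 200 UMIs, 0 were higher from S0-low to S0-medium, 1 higher and 0 lower from S1 to S2, 1 lower from S2 to S3 and 1 lower from S3 to S4/S5. At a fold of 1.5, 2 were higher and 1 lower from S0-low to S0-medium, 2 higher and 1 lower from S0-medium to S1, 4 lower from S1 to S2, 3 higher from S2 to S3 and 1 higher from S3 to S4/S5. Leaving out the small clusters led by embryonic globin and stromal genes, an alternative chosen after seeing the data, moved none of the counts beyond 1.5 times.

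The ratio of *Bcl2l1* from S1 to S2 ran from 1.06 (log10 antibody counts) to 3.79 and that of *Socs3* from 2.35 to 7.92. The ratio of *Stat5a* from S1 to S2 ran from 0.136 to 0.447, that of *Bcl2l1* from S2 to S3 from 3.12 to 7.77 and that of *Epor* from S3 to S4/S5 from 0.283 to 0.585. The ratio of *Epor* from S0-low to S0-medium ran from 1.29 to 4.05 over these alternatives, which did not include other Leiden resolutions. At resolutions of 0.4 and 1.2, S0-low without non-erythroid clusters had 803 and 1204 cells and *Epor* levels of 126 and 93.8 CPM. The S0-medium level was 141 CPM, so at a resolution of 0.4 the 2 stages lay closer together than the range given. No paired analysis was possible because there was 1 library. The depth limits *Cish*, *Socs3* and *Fam132b* to sums over cells, and differences between embryos, runs or days cannot be told apart from the levels given.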

Other observations

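A further 215 cells with few lineage antibody counts had intermediate Ter119 (median 59 counts) and a median CD71 count of 483, below the border of S2, and belonged to no stage. Their median depth was 3734 UMIs and globin made up 29.2% of their UMIs. *Epor* had 90.7 CPM in them (71.8 to 114), *Pim1* 701 CPM (640.3 to 765) and *Bcl2l1* 180.5 CPM (151 to 215). *Stat5a* had 12.1 CPM (6.26 to 22.6) from 17 UMIs and *Stat5b* 6.93 CPM (2.68 to 16.2) from 9 UMIs.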
